A study of Mus musculus with 4 samples.

Results

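Nnat, Mest, Inpp5f, Grb10, Ndn, Peg3, Plagl1 and Peg10 are imprinted genes whose mRNAs carried sites of contact with IMP2 in the embryonic mouse brain. They were chosen by name from the genes with at least 1 IMP2 cluster, and they made up 8 of 761 such genes and 35 of 1828 clusters. A cluster is a stretch of the transcript where overlapping sequence tags pile up. It was measured by HITS-CLIP, in which ultraviolet light fixes a protein to the RNA it touches, an antibody to the protein recovers the complex, and the attached RNA fragments are sequenced. Per the labels, whole brains of Swiss Webster embryos at E14 were used, with no other genotype, allele or treatment named. The study had 4 libraries, titled R (2 libraries) or M (2 libraries). The labels leave these letters unexplained. The protocol names antibodies to IMP2 raised in rabbit and in mouse, and no link to the letters was assumed.

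The deposited list gives a single value per cluster for the whole series, so no value below has a replicate error and no test between libraries was possible. The choice of these genes rests on the listing itself, so their heights and counts are descriptions without a test. No library of a control immunoprecipitation or of input RNA was analysed here, and the depth behind each height is unknown. The abundance of each transcript was not measured either. A tall cluster on an abundant transcript and a tall cluster on a preferred transcript cannot be told apart, and in whole brain neither can more expressing cells and more RNA per cell. Of the markers named for each cell type, the list held 5 of 8 for neurons, 2 of 8 for neural progenitors, 3 of 6 for erythroid cells, 3 of 6 for meninges and mesenchyme, 0 of 4 for microglia and 0 of 4 for endothelium. In the erythroid count, Hba-a1 and Hba-a2 share the same cluster. Of all protein-coding genes 3.47% were listed, and a count of 0 of 4 cannot be set apart from that share. Being listed is not a measure of expression, and the part of these cell types in the results below was not tested.

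Imprinted genes are expressed from the maternal or the paternal copy only, according to methylation marks set in the germ line. Many of them act on fetal growth and on the developing brain, and several belong to a network of genes that are expressed together in growing tissue and are lowered after birth. IMP2, encoded by Igf2bp2, belongs to the IGF2BP family of RNA-binding proteins, named after the mRNA of the imprinted growth factor gene Igf2, and these proteins bind mRNAs and act on their stability, transport and translation. CLIP tags in this list carry no information on the parental allele.

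The 8 genes differed widely in the height and number of their clusters. The height of a cluster, read as the largest number of overlapping tags, ran from 18 to 107 over their 35 clusters with a median of 37. The median was 30 over all clusters of the list, with the middle 50% between 24 and 39. Of the 35 clusters, 21 (60%) were taller than that median, against 46.9% of all clusters. In 7 of the 8 genes the highest cluster was above it, against 53.7% of listed genes, and Plagl1 was the exception. At least 2 clusters were found in 6 of the 8, against 44.9% of listed genes, and Peg3 and Plagl1 had a single cluster. The clusters of the 8 genes had a median width of 73 bases, from 28 to 418, against a median of 53 over the list. The deposited fold of the height, whose reference level the file does not define, had a median of 5.52 beside 5.4 for all clusters. By these medians over pooled clusters, the clusters of the set were taller and wider than those of the list, while their folds lay near its middle. This did not hold for every gene. The median height of a gene's own clusters was below 30 in Inpp5f (23.5) and Plagl1 (19) and above it in the other genes, up to 49 in Nnat. No test was made, since the genes were picked from this list.

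**Figure D1:**
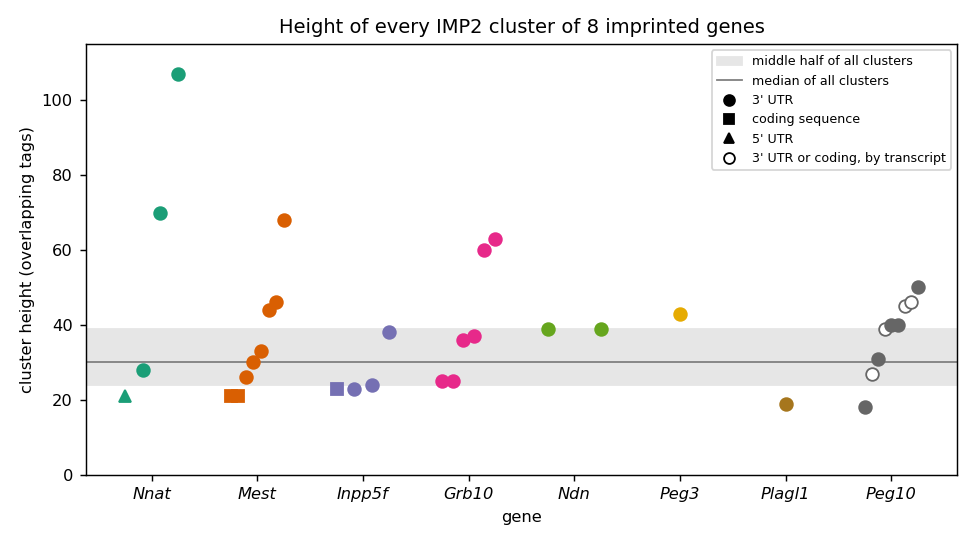
Height of each of the 35 clusters (overlapping tags, vertical axis) by gene, with the marker shape giving the region and open circles the Peg10 clusters that are coding or 3' UTR depending on the transcript. The grey band spans the middle 50% of all 1828 clusters (24 to 39) and the line is their median of 30; 2 Nnat, 1 Mest and 2 Grb10 clusters stand at 60 or above.

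Nnat encodes neuronatin, a small proteolipid of the endoplasmic reticulum that is expressed from the paternal copy and is abundant in newborn neurons. It had 4 clusters, and its 3' UTR (885 bases, chromosome 2, 157387371 to 157388255, mm9, plus strand) held 3 of them. In order from the start of the 3' UTR, their heights were 28, 107 and 70. The middle one, at 157387626 to 157387779, was 154 bases wide and the tallest cluster of the whole list. The next gene, D0H4S114, reached 106, so this first place has no support from replicate values. The last one, at 157387952 to 157388174, was 223 bases wide and ended 81 bases before the end of the transcript. The first, at 157387533 to 157387602, lay 23 bases ahead of the tallest and did not exceed the list's median of 30. These clusters took up 447 bases, or 50.5% of the 3' UTR, which placed Nnat at rank 17 for coverage among the 729 genes with a 3' UTR covered in part.

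The fourth Nnat cluster lay at the other end of the mRNA. It had a height of 21 and covered positions 157385868 to 157385942, starting 22 bases after the annotated start of the transcript. Of its 75 bases, 57 were inside the 5' UTR interval, which is only 79 bases long, and 18 ran past its end. Just 8 clusters of the whole list had their midpoint in a 5' UTR. Its fold of 2.12 was close to the lowest in the list, which is 2. All 4 Nnat clusters were assigned to both deposited transcripts of the gene, which have the same start and end, so its splice forms cannot be told apart.

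Height and fold ordered Nnat differently. By its highest cluster (107) it was first of the 761 listed genes, with D0H4S114 (106) next. By its highest fold (11.1) it was at rank 59. By the median height of its clusters, 49, it was at rank 27. Dividing each height by its fold gives the reference level that the fold implies. For the 4 Nnat clusters this level was 9.46 to 9.91, from the 5' UTR to the end of the 3' UTR, against a median of 5.96 for all clusters (middle 50% from 4.81 to 7.31). The median of Nnat, 9.72, was the seventh highest among listed genes. The implied level thus hardly varied within the gene while the heights ran from 21 to 107. A narrow range was not particular to Nnat. In Pgrmc1, described below, the level was 7.39 to 8.60 at heights of 32 to 94, while in Grb10 it was 3.80 to 6.15.

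The listed genes most like Nnat in highest height, number of clusters, 3' UTR length and 3' UTR coverage were Rtn1, Pgrmc1 and Ttr. Likeness was the Euclidean distance over these 4 measures on a log2 scale, each in units of its SD over the genes, among 728 other genes. Rtn1, a reticulon gene of the endoplasmic reticulum, was nearest (distance 0.68), with a height of 94, 3 clusters and 78.4% of 783 bases covered. Pgrmc1, a haem-binding membrane protein gene, followed (0.77) with 94, 6 clusters and 54.0% of 1188 bases. Ttr, the transthyretin gene of the choroid plexus, was the third (0.90) with 88, 3 clusters and 36.7% of 588 bases. The distances are a description of a single list and carry no error.

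Mest, a paternally expressed gene, encodes a membrane hydrolase of the endoplasmic reticulum and is widely expressed in embryonic tissue. It was the most densely covered of the 8 genes. Its 8 clusters were all annotated to a single transcript (NM_008590, chromosome 6, plus strand). Of the 1288 bases of its 3' UTR, 869 (67.5%) lay within 6 clusters, which was rank 6 of 729 genes, where the median gene had 4.70% covered. Only 2 of the 8 genes, Mest and Nnat, had more than 50% of the 3' UTR covered, and 17 of the 729 genes did.

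From the start of the Mest 3' UTR to its end the heights were 68, 44, 46, 33, 26 and 30. The tallest cluster was at the start and the lowest values were towards the end. That first cluster, at 30697071 to 30697488, was 418 bases wide, the third widest of the list, and 99 of its bases lay ahead of the 3' UTR interval, which begins at 30697170. The third cluster of the 3' UTR, at 30697635 to 30697946, spanned 312 bases and followed the one ahead of it after a gap of only 2 bases. A further pair of clusters lay in the coding sequence, at 30692820 to 30692849 and 30695100 to 30695155, in exon stretches of 137 and 102 bases. Both had a height of 21, below every 3' UTR cluster of the gene. Mest stood at rank 35 of the listed genes by height but at rank 222 by fold (8.02), and the level implied by height over fold was 6.38 to 8.50.

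**Figure D2:**
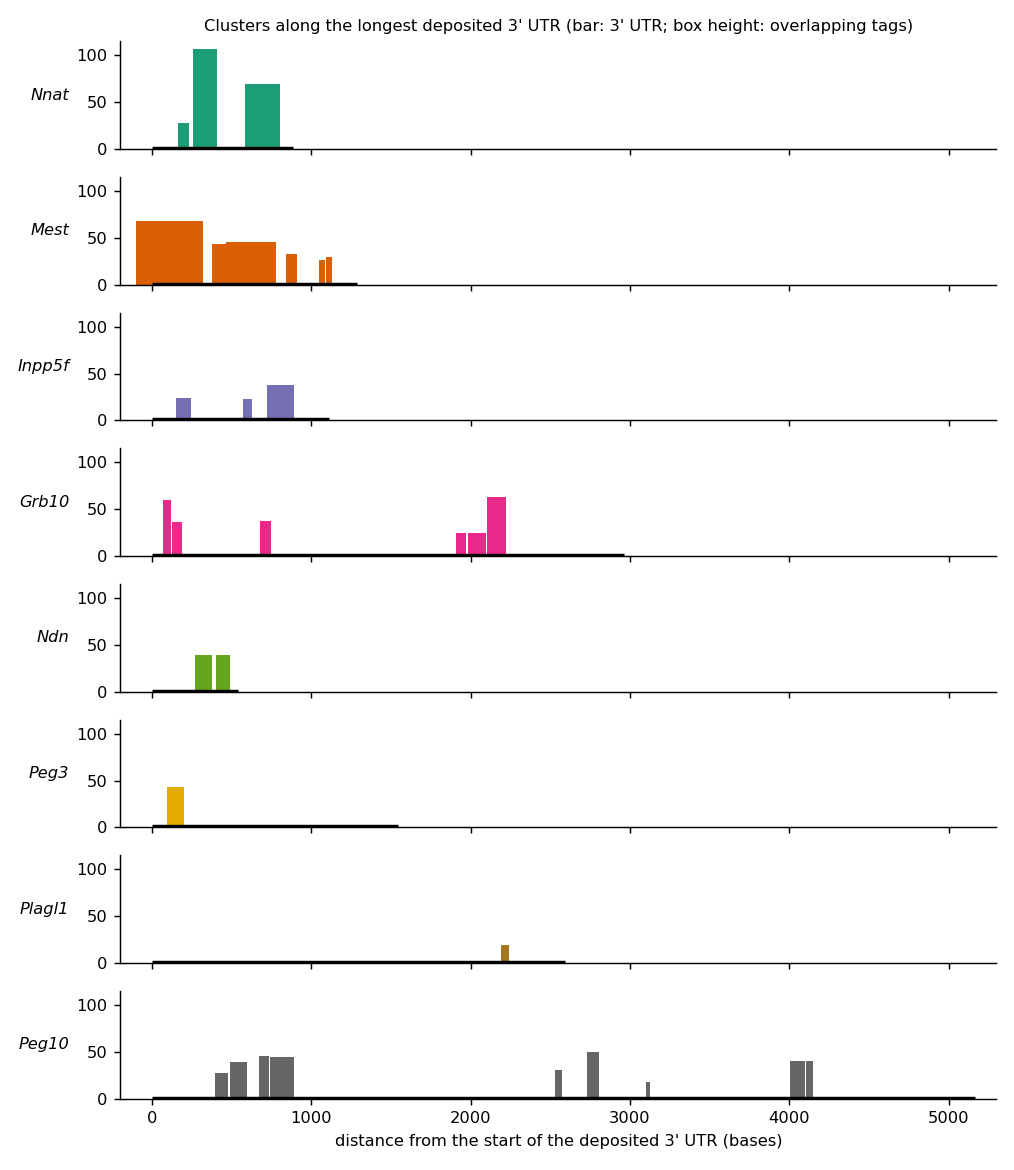
Clusters of each gene along its longest deposited 3' UTR, drawn from the start of the 3' UTR on the left (bases on the horizontal axis, which is the same for all genes). Boxes show the span and height of each cluster and the black bar the 3' UTR; clusters that end ahead of the 3' UTR (1 of Nnat, 2 of Mest, 1 of Inpp5f) are not drawn, and Nnat and Mest are the genes whose boxes fill over 50% of the bar.

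Inpp5f encodes a Sac-domain inositol phosphatase of the endocytic pathway. Its imprinted form in the brain is a shorter, paternally expressed transcript that starts within the gene, while the full-length transcript is made from both copies. The list assigned its 4 clusters to a single transcript of 85072 bases from start to end on the genome (NM_178641, chromosome 7, plus strand), and whether tags came from the shorter form was not tested. Its 3' UTR of 1111 bases held clusters of height 24, 23 and 38 in order, with 28.7% covered. The tallest, at 135839560 to 135839728, was 169 bases wide and was the only one of the gene above the list's median of 30. The remaining cluster (height 23) lay in the last 1150 bases of coding sequence and ended 293 bases before the 3' UTR.

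Grb10 encodes an adaptor that binds the insulin and IGF1 receptors and restrains growth. It is expressed from the maternal copy in most tissues and from the paternal copy in neurons, through different promoters. The deposited transcripts NM_010345 and NM_001177629 start 9449 bases apart and share the whole 3' UTR of 2964 bases (chromosome 11, 11830502 to 11833465, minus strand). All 6 Grb10 clusters were in this shared part and were assigned to both, so they cannot be ascribed to a promoter or a parental copy. Their heights from the start of the 3' UTR were 60, 36, 37, 25, 25 and 63.

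The tall clusters of Grb10 thus stood at separate places in the 3' UTR. The first, at 11833345 to 11833395, was 51 bases wide, began 70 bases into the 3' UTR and was followed by its neighbour after 2 bases. The last, at 11831246 to 11831361, was 116 bases wide and ended 744 bases before the end of the transcript. It closed a run of 3 clusters with gaps of 14 and 11 bases, and a stretch of 1161 bases without a cluster lay ahead of that run. In all, 475 bases (16.0%) were covered. Grb10 was nearer the top by fold than Mest was: its tall clusters had folds of 9.76 and 10.5, and it stood at rank 47 by height and 89 by fold. The level implied by height over fold was 3.80 to 6.15, with the lowest value at one of the clusters of height 25.

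Ndn, Peg3 and Plagl1 encode proteins found largely in the nucleus, and all are expressed from the paternal copy. Ndn encodes necdin, a MAGE-family protein of postmitotic neurons, in the region that is deleted in Prader-Willi syndrome. Its 3' UTR, at 542 bases the shortest of the 8, held 2 clusters of the same height, 39, at 69494540 to 69494648 and 69494671 to 69494761 on chromosome 7 (plus strand). They lay 22 bases apart, covered 36.9% of the 3' UTR and reached to 52 bases from its end. Their folds of 4.77 and 4.91 were below the list's median of 5.4 although their heights were above 30, and the level implied by height over fold was 8.18 and 7.94.

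Peg3 encodes a large zinc finger protein linked to fetal growth and maternal behaviour. It had a single cluster of height 43 and fold 7.96 at 6660017 to 6660124 on chromosome 7 (minus strand). The cluster lay near the start of the 3' UTR, beginning 92 bases into its 1546 bases, and covered 6.99% of it. Plagl1 encodes the zinc finger transcription factor ZAC1, which acts on other genes of the imprinted network. It had the lowest level of the 8 genes, with a single cluster of height 19 and fold 3.63 at 12851098 to 12851151 on chromosome 10 (plus strand). That cluster covered 2.08% of a 3' UTR of 2591 bases and ended 350 bases before its end. The lowest height in the list is 18, and by height Plagl1 stood at rank 728 of 761.

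**Figure D3:**
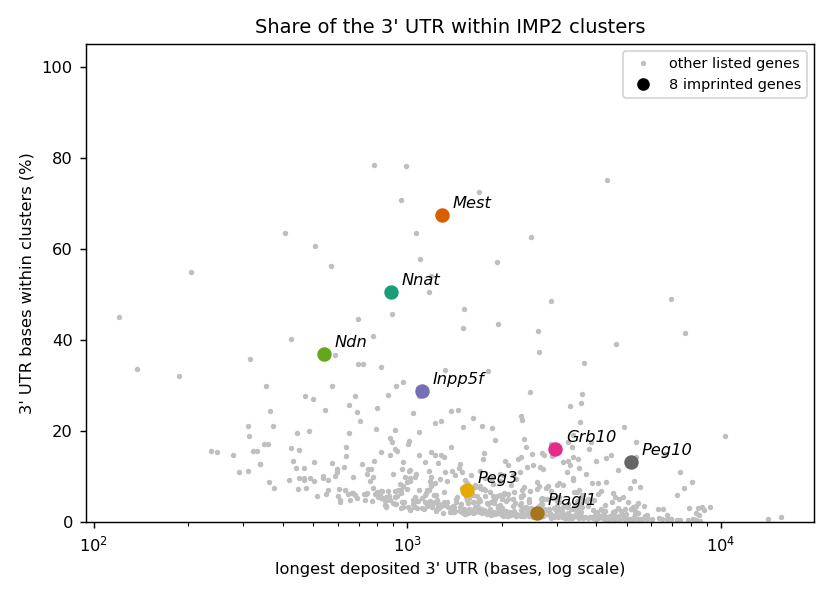
Percent of the 3' UTR within clusters against the length of the longest deposited 3' UTR (log scale) for the 729 genes with any part covered, with the 8 imprinted genes in colour and by name. Mest (67.5%), Nnat (50.5%) and Ndn (36.9%) have short 3' UTRs with large covered shares, while Plagl1 (2.08%) lies below the median of 4.70%.

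Peg10 is a paternally expressed gene derived from a retrotransposon. Its mRNA has overlapping reading frames, and a frameshift during translation gives the longer protein beside the shorter one. It had 9 clusters, the most of the 8 genes, at rank 24 of the listed genes, level with others. RefSeq holds a transcript for each protein with the same start and end on chromosome 6 (plus strand): NM_001040611, whose 3' UTR begins at 4705352, and NM_130877, whose coding sequence runs on to 4707240. The 1889 bases between these points are 3' UTR in the former and coding sequence in the latter.

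A group of 4 Peg10 clusters fell within those 1889 bases. Their heights in order were 27, 39, 46 and 45, and they lay close together between 4705747 and 4706239, from 395 bases into the stretch. They covered 400 bases, or 21.2% of it. No cluster followed for 1640 bases. The other 5 clusters lay in the 3276 bases that are 3' UTR in both transcripts, with heights of 31, 50, 18, 40 and 40, and covered 280 bases or 8.55% of them. The tallest cluster of the gene (50, fold 7.87, at 4708081 to 4708153) was among these, as was the lowest, whose height of 18 is the minimum of the list. The median heights of the groups were 42 and 40, so their heights overlapped, while the covered share was larger in the stretch with a coding role. Whether those 4 clusters count as 3' UTR or coding sequence depends only on the transcript taken. The level implied by height over fold was 6.08 to 7.25 over all 9.

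**Figure D4:**
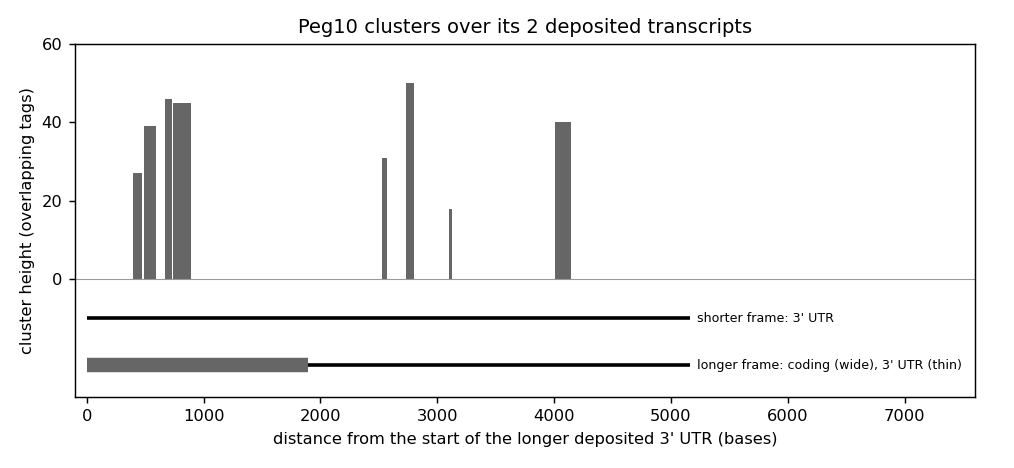
Position and height of the 9 Peg10 clusters (overlapping tags) by distance from the start of the longer deposited 3' UTR. The bars below show the transcript of the shorter frame, which is 3' UTR throughout, and that of the longer frame, which is coding for the first 1889 bases; 4 clusters lie in that stretch and 5 beyond it.

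By the midpoint of each cluster, with 3' UTR taken first where transcripts differ, 31 of the 35 clusters (88.6%, exact Clopper-Pearson 95% interval 73.3 to 96.8) lay in a 3' UTR, against 94.1% of all clusters. A further 3 (8.57%) were coding, from Mest and Inpp5f, and 1 (2.86%), from Nnat, was in a 5' UTR. With the 4 shared Peg10 clusters counted as coding, the 3' UTR held 77.1%. The intervals cover counting error only, and clusters of a gene share a transcript and are not independent. With 3' UTR taken first, all 4 clusters outside 3' UTRs had heights of 21 to 23, below the list's median. The shared Peg10 clusters had heights of 27 to 46. Along the 3' UTR, 15 clusters had their midpoint in the part nearer the coding sequence and 16 in the part nearer the 3' end. Peg3 and the tallest Mest cluster were near the start, and the Plagl1 cluster and the second Ndn cluster were near the end.

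**Figure D5:**
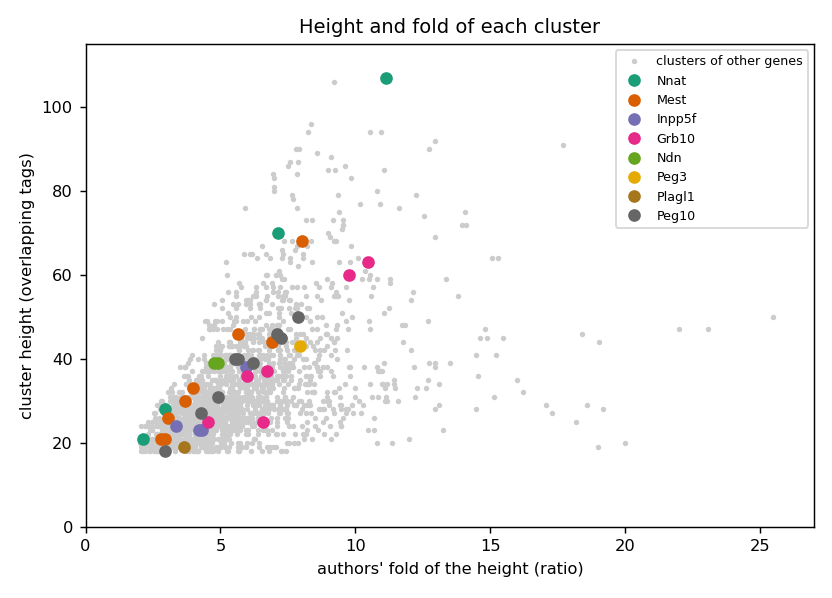
Height (overlapping tags) against the authors' fold of the height for each cluster of the 8 genes in colour and for all other clusters in grey. The clusters of Nnat are tall for their folds, at ranks 70 to 94 by height over fold, and other clusters rank higher. Those of height 21 and 28 lie at the lower left, at folds of 2.12 and 2.96. The tallest Nnat cluster has a height of 107 at a fold of 11.1, while Grb10 reaches a fold of 10.5 at a height of 63. The largest fold of the list is 25.5.

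The order of the 8 genes depended on the measure. By highest height it was Nnat (107), Mest (68), Grb10 (63), Peg10 (50), Peg3 (43), Ndn (39), Inpp5f (38) and Plagl1 (19). By highest fold it was Nnat (11.1), Grb10 (10.5), Mest (8.02), Peg3 (7.96), Peg10 (7.87), Inpp5f (5.95), Ndn (4.91) and Plagl1 (3.63). Nnat was first and Plagl1 last by both. Neighbours such as Ndn and Inpp5f, or by fold Nnat and Grb10 as well as Mest and Peg3, cannot be ordered without replicate values. Over the 35 clusters, wider clusters tended to be taller (Spearman's rho = 0.61, beside 0.53 over all 1828), a description over clusters that share transcripts and libraries.

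The 8 genes were set beside other imprinted genes. A list of protein-coding genes imprinted in the mouse, written from general knowledge, held 69 genes that were in the RefSeq table, and 9 of them (13%) had a cluster, against 3.47% of all 21900 protein-coding genes. Since 8 of the 9 are the genes chosen above for being listed, nothing is read from this share. A cluster taller than the median height was held by 11.6% of the 69 (1.87% of all protein-coding genes) and at least 2 clusters by 8.70% (1.56%), and every gene with at least 2 was a member. Of the other 61 genes, 1 (1.64%) was listed, a count too small to set apart from the 3.47% of all protein-coding genes. Among the 29 genes of the paternally expressed side 7 had a cluster, all of them members of the set. On the maternally expressed side it was 1 of 36, and among the 4 genes whose expressed copy depends on tissue or transcript it was Grb10.

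The single addition was Casd1, a gene next to the Peg10 domain that encodes an enzyme acetylating sialic acids. It had 1 cluster of height 48 and fold 9.32 at 4592076 to 4592150 on chromosome 6 (plus strand). Of its 75 bases, 43 were in a coding interval and 32 ran past it. Casd1 ends 103924 bases ahead of the annotated start of Peg10. Its height was close to the highest Peg10 cluster (50).

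The imprinted neighbours of the 8 genes were looked up as well. Of 22 such genes, only Casd1 had a cluster (4.55%), a share near the 3.47% of all protein-coding genes, so nothing is read from the absence of the rest. Blcap, which has Nnat inside an intron, was not listed, nor were Copg2 and Klf14 beside Mest, Sgce, Ppp1r9a, Asb4, Calcr, Tfpi2, Pon2 and Pon3 around Peg10, or Usp29 and Zim1 beside Peg3. The same held for Magel2, Mkrn3, Peg12, Snrpn, Snurf, Ube3a and Atp10a in the domain of Ndn, and for Ddc and Cobl beside Grb10. Of 14 genes placed in the imprinted growth network, 7 were listed (50%, against 3.47% of all protein-coding genes): Nnat, Mest, Grb10, Peg10, Peg3, Ndn and Plagl1. All 7 are members chosen because they were listed, so nothing is read from this share. Igf2, Igf2r, Dlk1, Cdkn1c, Gnas, Slc38a4 and Sgce were not. The list shows no cluster under a height of 18 or a fold of 2, and transcript levels were not measured, so a gene without contact and a gene with contact under these values cannot be told apart.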

How the data were processed

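HITS-CLIP of IMP2 was measured in 4 libraries of E14 mouse brain. The authors deposited a single list of clusters annotated to RefSeq mRNA. Bowtie, FastQC and mm9 come from the submitters' processing notes. For the peak caller, any threshold and the pooling of libraries, nothing is stated there or in the labels. Height is the authors' signal for a cluster, handled here in whole numbers and read as a count of overlapping tags. The fold, per the file headers, is a ratio of the height to a level left undefined. Both are the authors' values.

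The 2865 lines were reduced to 1828 distinct clusters by chromosome, start, end and strand; 54 lines and 11 transcripts belonged to the 8 genes. Starts were converted to 1-based. Region was set by the midpoint of a cluster, 3' UTR first. Coverage is the part of the longest deposited 3' UTR interval within clusters. The level of a gene is its highest cluster. Transcripts were matched by accession (1088) or name (11) to RefSeq on GRCm38.p6 for names only. Python 3.11.15, pandas 2.3.3 and scipy 1.17.1 were used, and interval functions were tested on simulated data. The members and gene lists were chosen with earlier results of these data known. Named were the members, listed imprinted genes, their imprinted neighbours, Igf2, H19, Igf2r and the 3 genes nearest to Nnat. H19 is non-coding and outside an mRNA list. No cluster sequence is shown, since no mm9 genome was used.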

Additional observations from a re-analysis of the deposited data

How the results depend on the processing

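No paired analysis was possible because the list has no value of a single library, and for the same reason no library could be left out. Joining clusters at most 50 bases apart left 25 of the 35 clusters, with Grb10 falling from 6 to 3. Counting only clusters taller than the list's median left 21 clusters, 100% of them in 3' UTRs with 3' UTR taken first. Among these, the Peg10 clusters of height 39, 46 and 45 are coding in its other transcript. The region of largest overlap gave 88.6% in 3' UTRs again. The share of imprinted genes listed was 11.6% with taller clusters (1.87% of all protein-coding genes) and 8.70% with at least 2 clusters (1.56%). On the paternally expressed side alone it was 24.1%, and without the 8 members it was 1.64%, each beside 3.47% of all protein-coding genes. Every listed gene of the paternally expressed side is a member chosen for being listed, so nothing is read from that share. The setting without the 8 members and the count of shared Peg10 clusters as coding (77.1%) were added after the data were seen. The shortest 3' UTR moved the coverage of Peg10 from 13.2% to 8.55% and of no other member. With fold in place of height, 6 of the 8 ranks moved by more than 1.5 times, as did 6 with the median height. The number of tags per library is unknown, so no height has a sampling interval.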

Other observations

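Clusters of these genes often lay side by side. Of the 27 gaps between neighbouring clusters of the same gene, 10 were at most 50 bases and 5 at most 10 bases long, and the smallest was 2 bases, in Mest and in Grb10. Joining such neighbours turned the pair of Ndn into 1 cluster, the 4 clusters of Nnat into 3 and the 9 of Peg10 into 6, while the 4 of Inpp5f stayed apart. The tallest clusters of Nnat and Mest, and those of height 60 and 63 in Grb10, each had a lower neighbour, at 23 bases in Nnat, 57 in Mest and 2 and 11 in Grb10. Whether such neighbours are separate contacts or a single one divided by the peak caller was not tested.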
